A study of Mus musculus with 6 samples.

Results

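The proteasome genes of the table were taken by symbol, as every row named Psma to Psmg followed by a number and at most 1 further letter. The pattern matched 49 of 40879 genes, of which 47 passed the filter on low counts and were tested. The data came from CD8 T cells sorted by flow cytometry from MC38-hPD-L1 tumours, grown for 12 days on C57BL/6N mice, after photocatalytic proximity labelling. MC38 is a mouse colon carcinoma line, here with human PD-L1 in its name. Biotin+ cells carried the biotin label and are described as next to the tumour, and Biotin- cells did not carry it and are described as distal. Both groups came from the same kind of tumour and mouse strain and held 3 poly-A RNA libraries each, numbered as replicates 1 to 3. The labels do not say how many animals a library came from or the age of the mice, and no genotype other than the strain is given.

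The proteasome is the protease that cuts ubiquitin-tagged proteins into peptides. Its barrel-shaped core particle (the 20S particle) is a stack of rings of alpha subunits, which form the gate, and beta subunits, of which Psmb5, Psmb6 and Psmb7 carry the active sites. The regulatory particle (the 19S particle) caps the barrel, with Psmc ATPases that unfold substrates and Psmd subunits that bind, deubiquitinate and position them. Under interferon gamma, and in lymphocytes also at rest, newly made cores take up the immunosubunits Psmb8, Psmb9 and Psmb10 in place of Psmb5, Psmb6 and Psmb7, and such immunoproteasomes make many of the peptides shown on MHC class I. Other caps are the Psme activators, and Psmf1 is a regulator first described as an inhibitor.

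Total counts were 16440614 to 19640693 per library in Biotin+ and 16423106 to 19035864 in Biotin-. Genes of CD8 T cell identity, which check the label, took 0.818% to 0.916% of the counts in Biotin+ and 0.499% to 0.641% in Biotin-, and 5 of 15 (Cd8a, Cd3e, Cd3g, Thy1 and Zap70) were higher in Biotin+ in edgeR's quasi-likelihood test, 13 of 15 in the fit with the replicate number as a block. Fibroblast and endothelial markers took 0.00807% to 0.0211% in Biotin+ and 0.0729% to 0.110% in Biotin-, with 5 of 9 lower in Biotin+ (7 of 9 with the block). Over all genes tested, 1.53% were called higher and 6.72% lower, and 5.6% and 12% with the block. Macrophage and monocyte markers took 0.0309% to 0.0847% in Biotin+ and 0.0696% to 0.2505% in Biotin-, with 0 of 7 called, 2 of them lower with the block. Dendritic and MHC class II markers took 0.0474% to 0.117% in Biotin+ and 0.0455% to 0.132% in Biotin-, with 0 of 6 called in either fit. The 6 epithelial and tumour markers took 0.00204% to 0.0133% in Biotin+ and 0.0016% to 0.00614% in Biotin-, and 0 of the 2 tested (Cdh1 and Epcam) were called, Cdh1 being called higher with the block. Cdh1 had 2387, 331 and 321 counts in Biotin+ replicates 1 to 3 and 1064, 377 and 171 in Biotin- replicates 1 to 3. Epcam had 97, 62 and 60 against 96, 76 and 77. Krt18 had 29, 7 and 3 counts in Biotin+ replicates 1, 2 and 3, against 2, 2 and 7 in Biotin- replicates 1, 2 and 3, while Krt8, Krt19 and Cldn4 had 0 in Biotin+ and at most 7 in a Biotin- library. Biotin+ replicate 2 stood apart: transcripts of cytosolic ribosomal proteins made up 18.8% of its reads, and 13.4% to 14.6% of those of each of the remaining 5. Every cell type uses the proteasome, and the part of these differences in the results below was not tested. In bulk RNA, fewer cells of a type and less RNA per cell cannot be told apart.

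None of the 47 proteasome genes passed an adjusted p of 0.05 between Biotin+ and Biotin- cells in edgeR's quasi-likelihood test, where 8.26% of 13360 genes tested did (1.53% higher and 6.72% lower). The log2 fold change (Biotin+ over Biotin-) was positive for 42 of the 47, with a median of 0.24, beside a median of 0.06 and 55.3% positive over all genes tested. At an unadjusted p under 0.05, Psmb3, Psmb8, Psmb9 and Psmf1 were higher and Psmd7 was lower, where 8.62% of all genes were higher and 13.9% lower. DESeq2's Wald test called 1 member higher (Psmb8) and 0 lower, where it called 3.53% of all genes higher and 10.4% lower. Limma-voom called 0 members, where it called 2.48% of all genes higher and 6.98% lower. The labels do not say what the replicate numbers mark, nor whether they pair the libraries. With the number as a block edgeR called Psmb3, Psmb8 and Psmb9 higher and 0 members lower, where 5.6% of all genes were called higher and 12% lower.

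Which sign the set had rested on the scaling. Scaling to the CD8 T identity genes takes their level as equal between libraries, while their median log2 fold change was 0.69 with TMM scaling. Scaled in this way, the median of all genes moved by -0.776 and that of the 47 members to -0.56, 0 of 47 were positive, and 0 were called higher and 12 lower, where 0.157% of all genes were called higher and 29.3% lower. Those 12 were Psma5, Psma6, Psmc1, Psmd1, Psmd2, Psmd6, Psmd7, Psmd8, Psmd11, Psmd12, Psmg1 and Psmg2. Set against the median of all genes, the members' median lay 0.18 above it with TMM scaling and 0.15 above it with identity scaling. With library size alone the members' median was 0.02 and 29 were positive, with a median of -0.14 over all genes.

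Much of the positive shift came with 1 library. Of the 47 members, 43 had their highest level, as CPM (the usual read count per library size, here scaled with TMM factors), in Biotin+ replicate 2, the library that held the highest value of 27.5% of all genes tested. The lowest value lay in Biotin- replicate 1 for 20 members and in no case in Biotin+ replicate 3. Without Biotin+ replicate 2, 32 of 47 members were positive, their median was 0.06 and 0 were called, 1 being higher and 2 lower where the unadjusted p was below 0.05. Of 13821 genes tested without this library, 51.6% were positive, 58 were called higher and 364 lower, and the median was 0.018. The members' median thus lay 0.046 above that of all genes. The values of most single genes moved by over 1.5 times with this library, among them Psma2 (0.48, and 0.19 without it), Psmc3 (0.50 and 0.22), Psme2 (0.46 and 0.27) and Psmf1 (0.51 and 0.26). Members' reads made up 0.595%, 0.762% and 0.668% of the counts in Biotin+ replicates 1, 2 and 3, against 0.593%, 0.608% and 0.667% in Biotin- replicates 1, 2 and 3. The share in Biotin+ replicate 2 stood above all others, and the other Biotin+ shares were close to the lowest and the highest of the Biotin- shares. The groups were fully separated in CPM for 10 members that were higher in Biotin+ (Psma2, Psmb3, Psmb6, Psmb8, Psmc1, Psmc3, Psmc5, Psme2, Psme3 and Psmf1) and for 1 that was lower (Psmd7), where 13.4% of all genes lay wholly above and 15.9% wholly below.

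**Figure D1:**
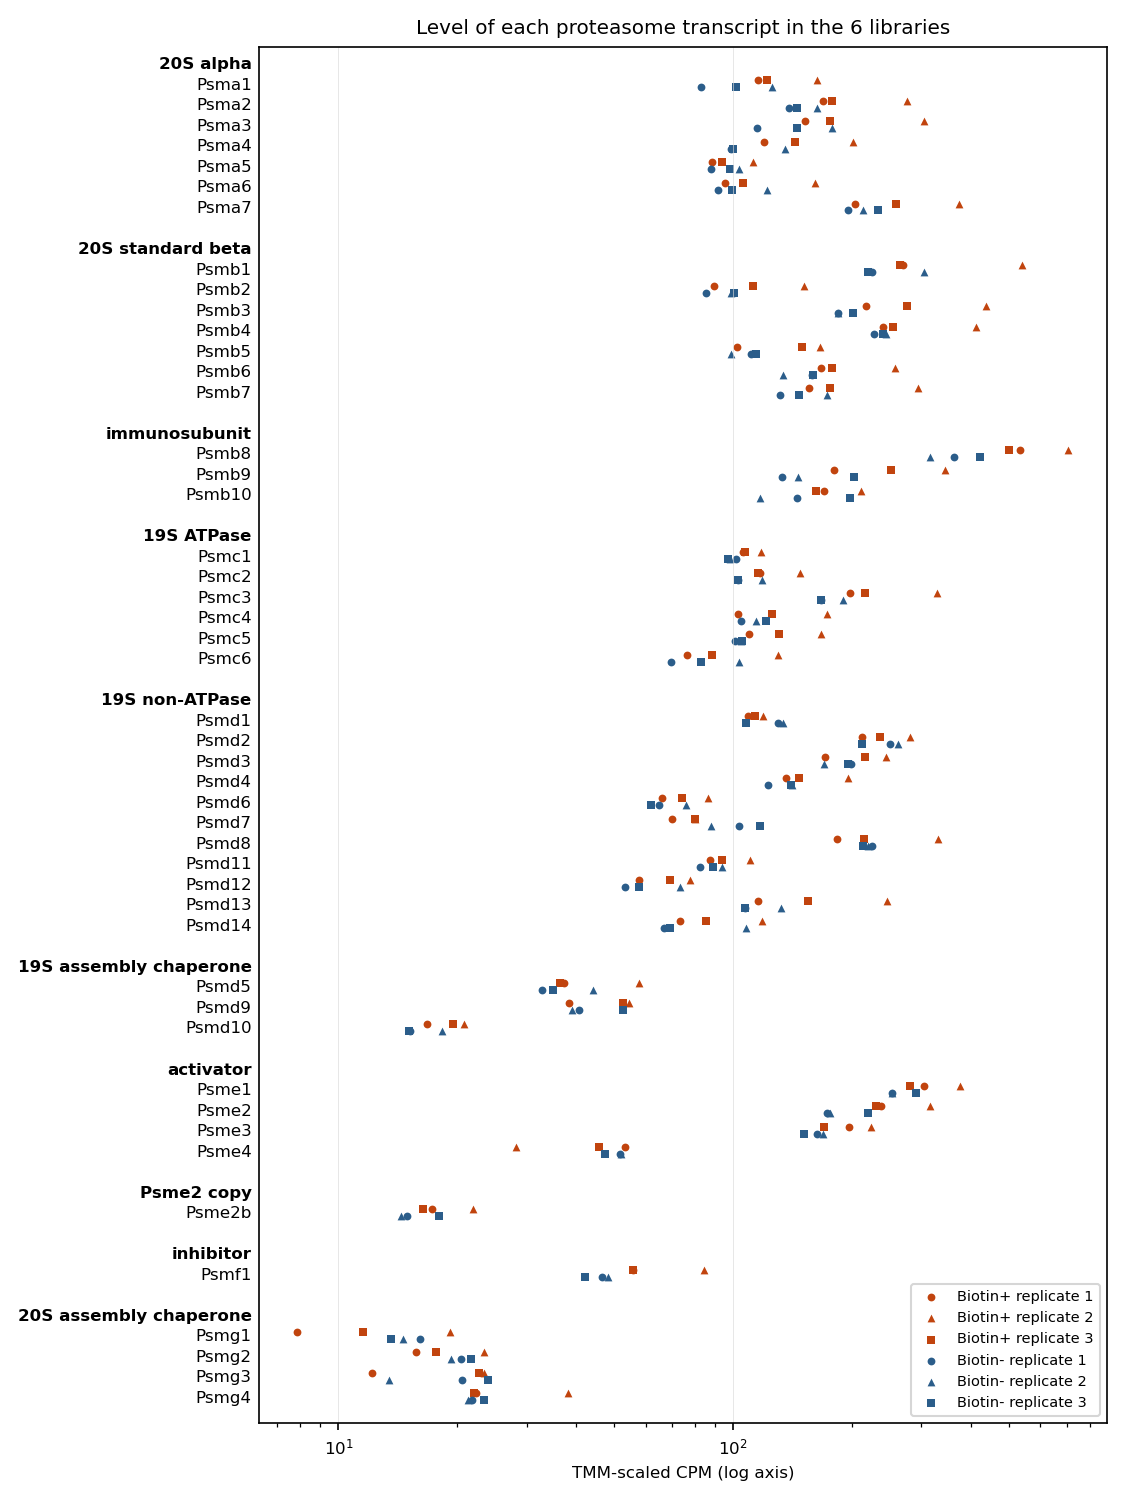
TMM-scaled CPM of the 47 tested proteasome genes on a log axis, grouped by role, with Biotin+ (red) above Biotin- (blue) in each row and the replicate number as the symbol. The red triangle of Biotin+ replicate 2 is the highest point for 43 of the 47 genes and the lowest for 1, Psme4.

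**Figure D2:**
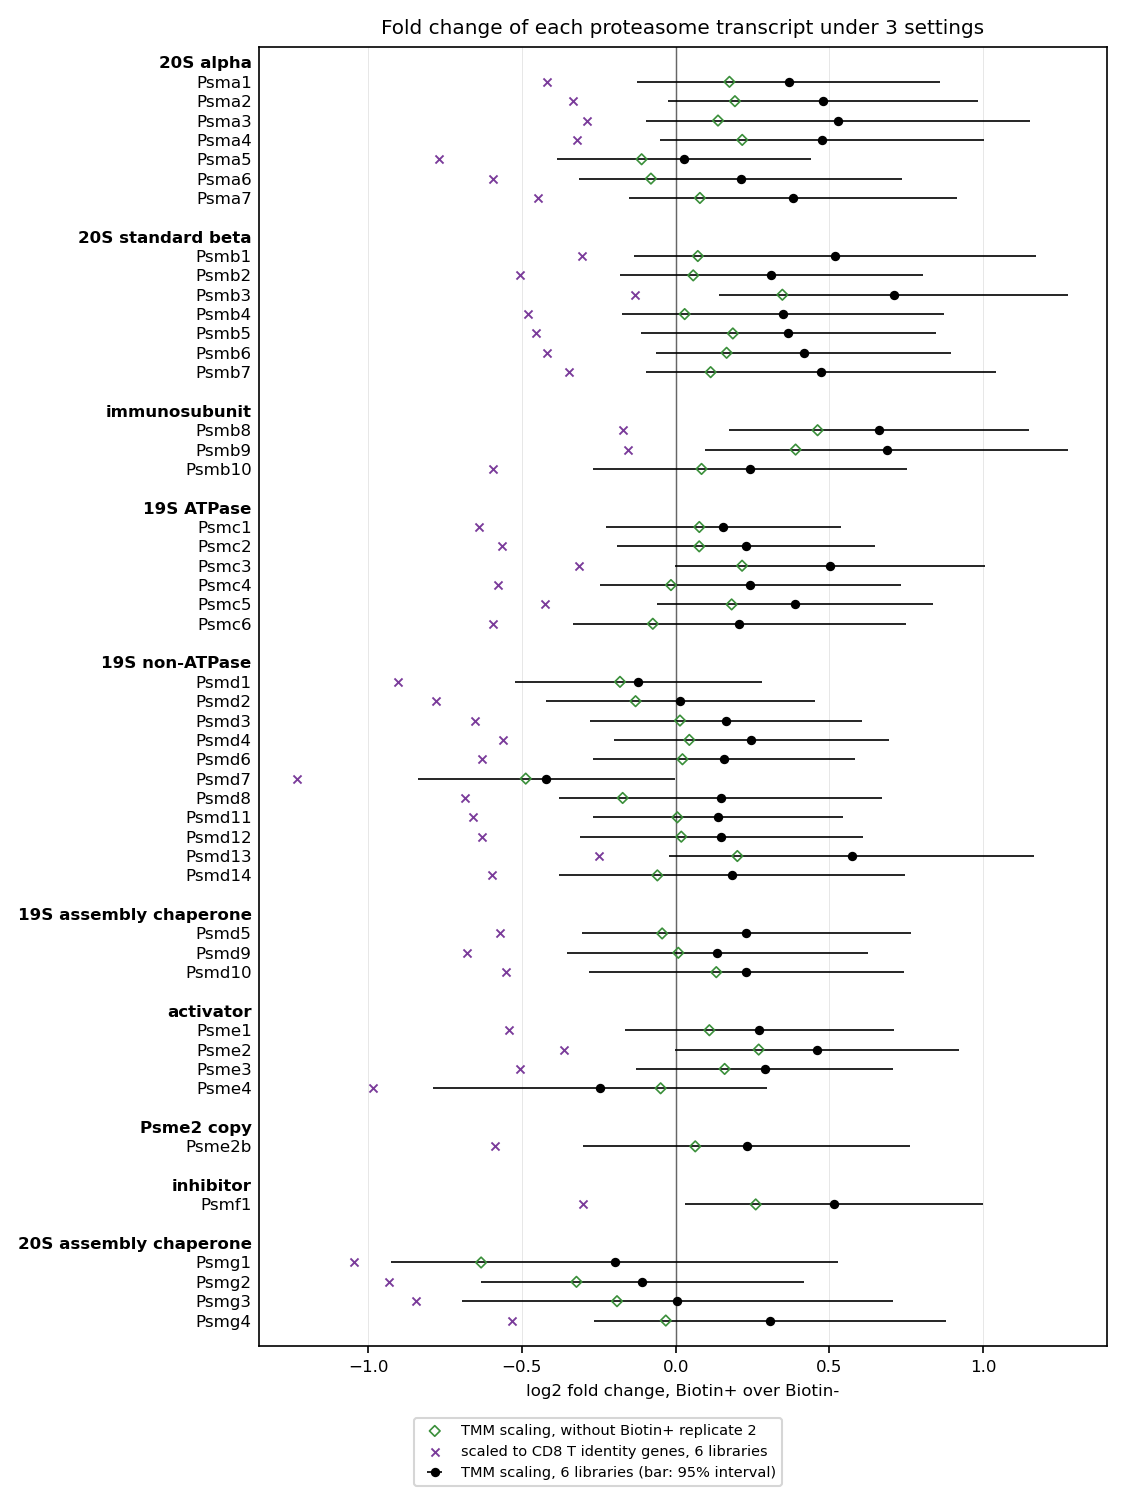
Log2 fold change, Biotin+ over Biotin-, of the same genes, as fitted by edgeR with TMM scaling (black, bar: 95% interval), without Biotin+ replicate 2 (green) and scaled to the CD8 T identity genes (purple). Of the 47 genes, 42 are positive in black, 32 in green and 0 in purple, and the bars of Psmb3, Psmb8, Psmb9 and Psmf1 lie wholly above 0.

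Psmb8 and Psmb9 had larger log2 fold changes than Psmb10, with intervals that overlapped and no test of the difference. Psmb8, which takes the place of Psmb5, was the most abundant proteasome transcript by CPM, at 533, 707 and 499.6 in Biotin+ replicates 1, 2 and 3, against 363, 316 and 421 in Biotin- replicates 1, 2 and 3. All 3 Biotin+ values lay above all 3 Biotin- values. Its log2 fold change was 0.66 ± 0.22 (SE, 95% interval 0.17 to 1.15, edgeR adjusted p = 0.0994; 0.0274 with the replicate block; DESeq2 adjusted p = 0.0471). Without Biotin+ replicate 2 it was 0.46 (edgeR adjusted p = 0.219), and with identity scaling it was -0.17.

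Psmb9, which takes the place of Psmb6, had 180.5, 344 and 251 CPM in Biotin+ replicates 1, 2 and 3, against 133, 146 and 203 in Biotin- replicates 1, 2 and 3. The groups overlapped, since Biotin+ replicate 1 lay below Biotin- replicate 3, but Biotin+ was higher within each of the 3 replicate numbers. Its log2 fold change was 0.69 ± 0.27 (SE, 95% interval 0.10 to 1.28, edgeR adjusted p = 0.155; 0.0327 with the replicate block), and 0.39 without Biotin+ replicate 2. Psmb10, which takes the place of Psmb7, had 169.7, 211 and 163 CPM in Biotin+ replicates 1, 2 and 3, against 145, 117 and 198 in Biotin- replicates 1, 2 and 3. Its groups overlapped, the highest Biotin- value lying above 2 of the 3 Biotin+ values. The log2 fold change was 0.24 ± 0.23 (SE, 95% interval -0.27 to 0.75, edgeR adjusted p = 0.584), and neither the block nor DESeq2 called it.

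The standard active-site subunits gave smaller log2 fold changes than Psmb8 and Psmb9 and were called in no fit. Psmb5, the chymotrypsin-like subunit, had 102, 166 and 149 CPM in Biotin+ replicates 1, 2 and 3, against 111, 98.6 and 114 in Biotin- replicates 1, 2 and 3 (log2 fold change 0.37 ± 0.22 SE, edgeR adjusted p = 0.358). Psmb6, the caspase-like subunit, had 167, 257 and 178 CPM in Biotin+ replicates 1, 2 and 3, against 158, 134 and 159 in Biotin- replicates 1, 2 and 3 (log2 fold change 0.42 ± 0.22 SE, edgeR adjusted p = 0.292). Its groups did not overlap, while those of Psmb5 did. Psmb7, the trypsin-like subunit, had 155, 294 and 176 CPM in Biotin+ replicates 1, 2 and 3, against 131, 173 and 147 in Biotin- replicates 1, 2 and 3 (log2 fold change 0.47 ± 0.26 SE, edgeR adjusted p = 0.315). Without Biotin+ replicate 2 the log2 fold changes were 0.19 for Psmb5, 0.17 for Psmb6 and 0.11 for Psmb7.

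A ratio of 2 genes within a library needs no scaling between libraries, but with 3 libraries a group neither exact permutation test used here could pass 0.05. The ratio of Psmb8 to Psmb5 reads was 5.21, 4.25 and 3.34 in Biotin+ replicates 1, 2 and 3, against 3.27, 3.20 and 3.68 in Biotin- replicates 1, 2 and 3. The groups overlapped through replicate 3 of each, and the mean log2 ratio was 0.31 higher in Biotin+ (mean 2.07, SD 0.32, in Biotin+ libraries and mean 1.76, SD 0.11, in Biotin- libraries, n = 3 each, two-sided exact permutation p = 0.2, Benjamini-Hochberg p over 3 pairs 0.45). The ratio of Psmb9 to Psmb6 was 1.08, 1.34 and 1.41 in Biotin+ replicates 1, 2 and 3, against 0.841, 1.09 and 1.27 in Biotin- replicates 1, 2 and 3. It was higher in Biotin+ within each of the 3 replicate numbers, by 0.364, 0.293 and 0.146 on the log2 scale for numbers 1, 2 and 3, a mean of 0.27 (exact permutation p = 0.3, Benjamini-Hochberg p 0.45; exact paired permutation p = 0.25, the smallest that 3 pairs can give). The ratio of Psmb10 to Psmb7 was 1.09, 0.718 and 0.925 in Biotin+ replicates 1, 2 and 3, against 1.10, 0.677 and 1.35 in Biotin- replicates 1, 2 and 3. Its mean log2 difference was -0.16 (exact permutation p = 0.7, Benjamini-Hochberg p 0.7), a sign that turned without Biotin+ replicate 2 or Biotin- replicate 3. The smallest exact permutation p that 3 against 3 unpaired libraries allow is 0.1, so these tests do not show that the ratios were alike.

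**Figure D3:**
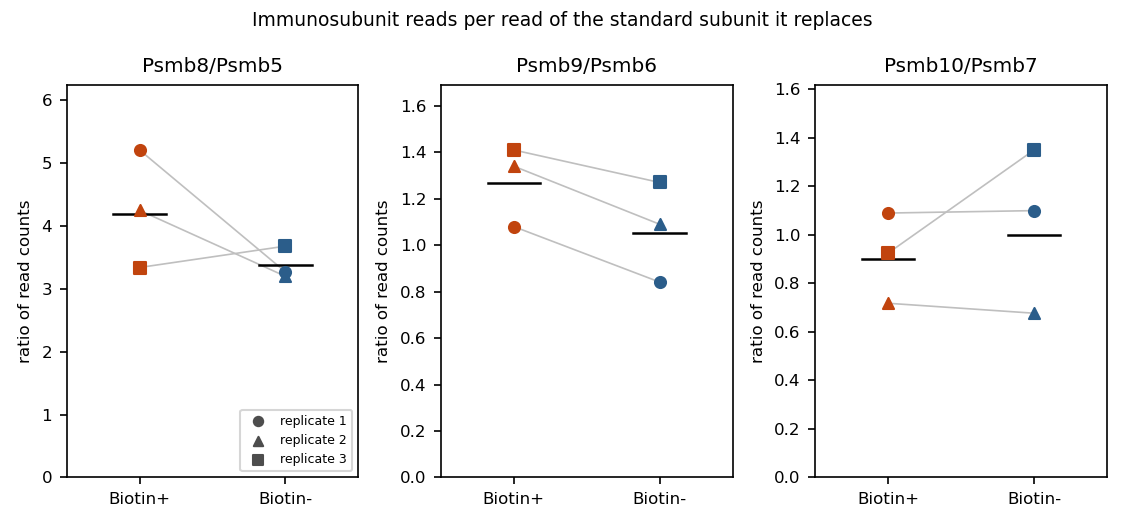
Reads of each immunosubunit per read of the standard subunit it replaces, in Biotin+ (left) and Biotin- (right) libraries, with a bar at the geometric mean of the 3 libraries and grey lines between libraries of the same replicate number. Psmb9/Psmb6 is higher in Biotin+ in all 3 numbers, Psmb8/Psmb5 in 2 and Psmb10/Psmb7 in 1.

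Per kilobase of transcript, the immunosubunits made up 56.4%, 52.8% and 53.2% of the transcripts of the 6 active-site subunits in Biotin+ replicates 1, 2 and 3, against 49.8%, 47.8% and 55.2% in Biotin- replicates 1, 2 and 3. Transcripts of the immunosubunits were thus about as frequent as those of the standard active sites in every library of both groups. Per kilobase, Psmb8 averaged 356 CPM (SD 68.5, n = 3) in Biotin+ libraries and 225 CPM (SD 32.6, n = 3) in Biotin- libraries, above Psmb5 in all 6 libraries (ratios per kilobase 1.77 to 2.88). Psmb9 was below Psmb6 in all 6 (0.496 to 0.830), while Psmb10 was above Psmb7 in 1 of the 6 (0.599 to 1.19). Some reads of these genes are uncertain. Of the bases of the Psmb7 transcript, 34.9% overlap exons of Nek6 on the opposite strand, of Psmb9 15.7% overlap Tap1, and of Psmb8 11.4% overlap Gm20496, and 40.0% of the 75-base windows of Psmb5 occur in transcripts of other genes (Gm3375 and Mir686).

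Psmb8 and Psmb9 lie close together in the MHC on chromosome 17, alternating with the peptide transporter genes Tap1 and Tap2, and Psmb9 and Tap1 are read in opposite directions from starts 225 bases apart (RefSeq, GRCm38.p6). The stretches before the start sites of Psmb8, Psmb9, Psmb5, Psmb6 and Psmb3 follow, because these are the immunosubunits called with the replicate block, the standard subunits that they replace, and the member with the largest log2 fold change. They are RefSeq sequences of GRCm38.p6, printed 5′ to 3′ on the strand of the gene, and stop before the start site. The first bases after that site lay near the start of the GENCODE principal transcript for Psmb5 and Psmb3. For Psmb8, Psmb9 and Psmb6 they did not, so the start sites of these genes are uncertain. Capitals mark matches to 5 motifs searched on both strands: TGACNNNGC (antioxidant response element, bound by the Nfe2l1 protein that controls proteasome genes), TTCNNNGAA (STAT element), the IRF element (GAAA, any 2 bases and GAAA again), CCGGAAG (ETS element) and the CCAAT box, searched by those letters.
Psmb8, chr17:34197945-34198194, plus strand: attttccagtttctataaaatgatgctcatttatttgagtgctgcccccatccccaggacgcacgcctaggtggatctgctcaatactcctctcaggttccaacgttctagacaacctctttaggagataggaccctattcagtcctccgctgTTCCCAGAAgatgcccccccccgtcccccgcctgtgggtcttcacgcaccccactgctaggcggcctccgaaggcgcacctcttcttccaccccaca
Psmb9, chr17:34187331-34187555, minus strand: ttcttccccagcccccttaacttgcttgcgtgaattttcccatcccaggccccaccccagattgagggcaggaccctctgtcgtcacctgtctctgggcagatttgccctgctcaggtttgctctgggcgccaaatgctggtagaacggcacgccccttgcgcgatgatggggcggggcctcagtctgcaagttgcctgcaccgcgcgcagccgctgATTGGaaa
Psmb5, chr14:54617996-54618245, minus strand: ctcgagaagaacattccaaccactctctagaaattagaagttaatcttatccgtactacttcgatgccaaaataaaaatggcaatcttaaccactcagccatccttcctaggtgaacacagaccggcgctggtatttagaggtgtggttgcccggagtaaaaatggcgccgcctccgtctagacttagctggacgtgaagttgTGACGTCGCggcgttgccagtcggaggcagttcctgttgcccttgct
Psmb6, chr11:70525107-70525356, plus strand: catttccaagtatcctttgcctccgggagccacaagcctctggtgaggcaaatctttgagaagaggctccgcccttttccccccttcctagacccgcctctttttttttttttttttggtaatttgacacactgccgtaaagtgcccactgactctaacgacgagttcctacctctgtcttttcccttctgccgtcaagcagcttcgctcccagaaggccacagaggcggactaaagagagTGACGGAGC
Psmb3, chr11:97703184-97703433, plus strand: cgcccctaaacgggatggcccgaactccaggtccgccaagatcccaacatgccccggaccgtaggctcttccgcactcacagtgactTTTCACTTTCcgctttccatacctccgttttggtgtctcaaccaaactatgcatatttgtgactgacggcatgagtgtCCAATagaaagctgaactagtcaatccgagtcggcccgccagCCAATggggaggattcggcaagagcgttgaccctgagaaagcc
In these stretches Psmb8 held a STAT element, Psmb9 a CCAAT box close to its start, Psmb5 and Psmb6 an antioxidant response element each, and Psmb3 an IRF element and 2 CCAAT boxes. A match of letters is a description and not a binding site. The STAT element reads the same on both strands, and no 2 motifs overlapped here.

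RefSeq windows from 250 bases before to 50 after the start were at hand for 41 of the 49 members. The ETS element CCGGAAG occurred in the windows of 14 of the 41 genes (34.1%), beside 9.93% of 27025 genes with a window. The antioxidant response element occurred for 6 of 41 (14.6%), beside 14% of all genes, and the IRF element for 5 of 41 (12.2%), beside 3.99%. The STAT element occurred for 3 (7.32%), beside 9.55%, and the CCAAT box for 14 (34.1%), beside 41.1%. ETS elements lay in windows of regulatory particle genes such as Psmc1, Psmc2, Psmd2, Psmd11 and Psmd13. They also lay in those of Psme3, Psme4, Psmg1 and Psmg3, of 1 alpha gene (Psma6) and of 0 beta genes. The number of genes with a window in each class is not given, so the classes cannot be compared.

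The alpha ring was positive for 7 of 7 genes, with a median log2 fold change of 0.38, and 0 of 7 were called. Psma2 had 169, 276 and 178 CPM in Biotin+ replicates 1, 2 and 3, against 138, 164 and 145 in Biotin- replicates 1, 2 and 3, without overlap. The log2 fold change of Psma2 was 0.48 ± 0.23 (SE, edgeR adjusted p = 0.245). Psma3 had the largest value of the ring at 0.53 ± 0.28 (SE, edgeR adjusted p = 0.305), was at 0.14 without Biotin+ replicate 2, and shared 21.3% of its 75-base windows with other gene models. Psma4 was at 0.48 ± 0.24 (SE) and Psma5 lowest, at 0.03 ± 0.19 (SE, 95% interval -0.39 to 0.44), with 88.6, 113 and 93.7 CPM in Biotin+ replicates 1, 2 and 3, against 88.0, 103 and 98.2 in Biotin- replicates 1, 2 and 3. Other genes held 39.8% of the 75-base windows of Psma5 and 16.7% of those of Psma4. Psma8, the alpha form of the testis, had 7, 0 and 3 counts in Biotin+ replicates 1, 2 and 3, against 4, 3 and 0 in Biotin- replicates 1, 2 and 3, and was not tested.

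Among the 7 standard beta genes, again 7 of 7 were positive and 0 called (median 0.42). Psmb3, a structural subunit without an active site, had the largest log2 fold change of all 47 members, 0.71 ± 0.26 (SE, 95% interval 0.14 to 1.28, edgeR adjusted p = 0.127; 0.0372 with the replicate block). It had 218, 437 and 276 CPM in Biotin+ replicates 1, 2 and 3, against 184, 184 and 201 in Biotin- replicates 1, 2 and 3. The groups did not overlap, and the value of Biotin+ replicate 2 was the highest by far, so that the log2 fold change was 0.35 without it (edgeR adjusted p = 0.324). Transcripts of other gene models hold 33.1% of the 75-base windows of Psmb3. Psmb2 was lowest of the class, at 0.31 ± 0.22 (SE, edgeR adjusted p = 0.45). Psmb11, the beta subunit of thymic cortical epithelium, had 0 counts in all 6 libraries, which allows up to 0.153 to 0.183 CPM per library (3 counts).

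Levels differed between subunits that each core holds in equal number. Per kilobase of transcript, the highest of the 14 standard core transcripts in both groups was Psmb3, at 405 CPM (SD 148, n = 3) in Biotin+ libraries and 248 CPM (SD 12.9, n = 3) in Biotin- libraries. The lowest was Psma2, at 71.4 CPM (SD 20.45, n = 3) in Biotin+ libraries and 51.2 CPM (SD 4.51, n = 3) in Biotin- libraries, so that the highest was 5.67 times the lowest in Biotin+ and 4.84 times in Biotin-. In the regulatory particle the highest of 17 was Psmd8, at 158 CPM (SD 50.8, n = 3) in Biotin+ libraries and 142.5 CPM in Biotin- libraries. The lowest was Psmd11, at 34.2 CPM (SD 4.21, n = 3) in Biotin+ libraries and 31.1 CPM in Biotin- libraries. For the core the median per kilobase was 146 CPM in Biotin+ libraries and 115 CPM in Biotin- libraries. For the regulatory particle it was 71.0 CPM in Biotin+ libraries and 62.3 CPM in Biotin- libraries. Principal transcripts set these lengths, which need not be the forms these cells use.

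In the regulatory particle, all 6 ATPases were positive (median 0.24, 0 called). Psmc3 had 198, 328 and 215 CPM in Biotin+ replicates 1, 2 and 3, against 167, 189 and 167 in Biotin- replicates 1, 2 and 3. Its groups were separate and its value of 0.50 ± 0.23 (log2 fold change and SE, edgeR adjusted p = 0.223) was the largest of the ring, followed by Psmc5 at 0.39 ± 0.20 (SE, edgeR adjusted p = 0.291). Psmc1 was lowest at 0.15 ± 0.17 (SE), although its groups did not overlap, with 106, 118 and 107 CPM in Biotin+ replicates 1, 2 and 3, against 102, 98.1 and 97.2 in Biotin- replicates 1, 2 and 3.

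Of the 11 non-ATPase subunits 9 were positive (median 0.15, 0 called), and the class held both ends of the regulatory particle. Psmd13, a subunit of the lid, had 116, 245 and 155 CPM in Biotin+ replicates 1, 2 and 3, against 107, 132 and 107 in Biotin- replicates 1, 2 and 3. The log2 fold change of Psmd13 was 0.57 ± 0.27 (SE, edgeR adjusted p = 0.238), and 0.20 without Biotin+ replicate 2. Psmd7, the partner of the deubiquitinase in the lid, was the sole member with every Biotin+ library below every Biotin- library. It had 69.8, 80.3 and 80.2 CPM in Biotin+ replicates 1, 2 and 3, against 103, 88.1 and 117 in Biotin- replicates 1, 2 and 3. On the log2 scale Psmd7 was at -0.42 ± 0.19 (SE, 95% interval -0.84 to -0.0027, edgeR adjusted p = 0.218), -0.49 without Biotin+ replicate 2, and -1.23 with identity scaling (edgeR adjusted p = 0.0123). Psmd14, the deubiquitinase itself, was at 0.18 ± 0.25 (SE, edgeR adjusted p = 0.724), and the ubiquitin receptor Psmd4 at 0.25 ± 0.20 (SE, edgeR adjusted p = 0.515). The other negative value was that of the scaffold subunit Psmd1, -0.12 ± 0.18 (SE, edgeR adjusted p = 0.747).

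The interferon-inducible activators Psme1 and Psme2, which together form a cap that opens the core, lie near each other on chromosome 14 with only Emc9 between them (RefSeq, GRCm38.p6). Psme1 had 304, 377 and 281 CPM in Biotin+ replicates 1, 2 and 3, against 253, 253 and 290.1 in Biotin- replicates 1, 2 and 3 (log2 fold change 0.27 ± 0.20 SE, edgeR adjusted p = 0.458). Psme2 had 237, 315 and 231 CPM in Biotin+ replicates 1, 2 and 3, against 173, 176 and 219.9 in Biotin- replicates 1, 2 and 3 (log2 fold change 0.46 ± 0.21 SE, edgeR adjusted p = 0.223). The groups overlapped for Psme1 and did not for Psme2. Psme2b, a near copy of Psme2, had 7.29%, 6.95% and 7.12% of the Psme2 reads in Biotin+ replicates 1, 2 and 3, against 8.63%, 8.18% and 8.16% in Biotin- replicates 1, 2 and 3. Since 60.2% of its 75-base windows occur in Psme2, reads of the 2 genes cannot be told apart with certainty. The share was lower in each Biotin+ library than in each Biotin- library (mean 7.12%, SD 0.17, in Biotin+ and mean 8.32%, SD 0.266, in Biotin-, n = 3 each), a difference that was not tested.

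Psme3, the nuclear activator, had 197, 224 and 169.7 CPM in Biotin+ replicates 1, 2 and 3, against 163, 169 and 151 in Biotin- replicates 1, 2 and 3 (log2 fold change 0.29 ± 0.19 SE, edgeR adjusted p = 0.404). Psme4, a large activator linked to histone turnover, was lowest in Biotin+ replicate 2, with 53.3, 28.3 and 45.8 CPM in Biotin+ replicates 1, 2 and 3, against 51.6, 51.9 and 47.4 in Biotin- replicates 1, 2 and 3. Its log2 fold change was -0.24 ± 0.25 (SE, edgeR adjusted p = 0.606) and -0.05 without Biotin+ replicate 2. Psmf1 had 55.8, 84.3 and 55.8 CPM in Biotin+ replicates 1, 2 and 3, against 46.7, 48.3 and 42.2 in Biotin- replicates 1, 2 and 3, without overlap. For Psmf1 the log2 fold change was 0.51 ± 0.22 (SE, edgeR adjusted p = 0.193; 0.113 with the replicate block).

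None of the assembly chaperones was called. Of the 4 Psmg genes, which guide assembly of the core, 2 were positive and the median log2 fold change was -0.05. Psmg1 had 7.87, 19.1 and 11.6 CPM in Biotin+ replicates 1, 2 and 3, against 16.1, 14.6 and 13.6 in Biotin- replicates 1, 2 and 3, so that 2 Biotin+ libraries lay below and 1 above all Biotin- libraries (log2 fold change -0.20 ± 0.33 SE, edgeR adjusted p = 0.775). Psmg4 was at 0.31 ± 0.26 (SE, edgeR adjusted p = 0.529), and at -0.03 without Biotin+ replicate 2. The 3 chaperones of the regulatory particle, Psmd5, Psmd9 and Psmd10, had log2 fold changes of 0.23 ± 0.24, 0.14 ± 0.22 and 0.23 ± 0.23 (SE), with 0 called.

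The departure of Biotin+ replicate 2 varied with transcript length. Its log2 level minus the mean of Biotin+ replicates 1 and 3 had a median of 0.60 in the 15 members with the shortest transcripts (555 to 1165 bases), 0.47 in the 17 of middle length and 0.34 in the 15 longest (1785 to 6491 bases). Over all genes tested in these length ranges the medians were 0.54, 0.34 and -0.07. Across the 47 members, which share libraries, Spearman's rho with length was -0.30, and -0.44 across 12652 genes with a length. Psme4, the longest, was the sole member with a negative value. The median of the 15 longest members thus lay above that of all genes in the same wide length range, within which lengths were not matched. Psme4, at -0.80, lay below both. The part of length in the fold changes was not tested.

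**Figure D4:**
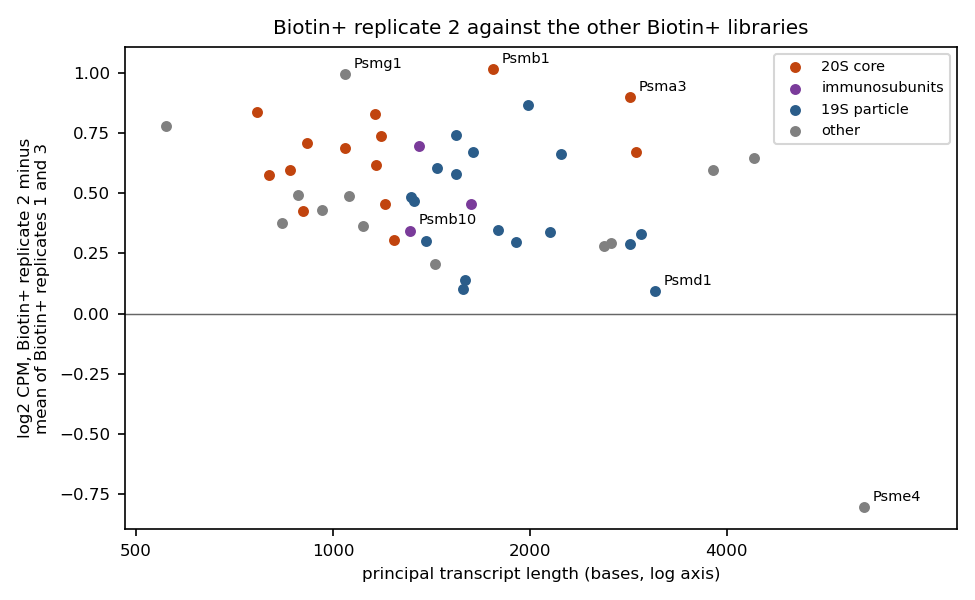
Log2 CPM of Biotin+ replicate 2 minus the mean of Biotin+ replicates 1 and 3 for the 47 tested members, against the length of the principal transcript on a log axis, coloured by role. All points but that of Psme4 lie above 0, from Psmd1 near the line to Psmb1 and Psmg1 near 1.

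Genes that work with the proteasome but lie outside the symbol pattern gave no call. Of 26 such genes tested 0 passed in edgeR, where 8.26% of all genes did, and the median log2 fold change was 0.0009. DESeq2 called 1 of them lower, where it called 10.4% of all genes lower. Pomp, which matures new cores, was at 0.47 ± 0.23 (SE, edgeR adjusted p = 0.269; 0.16 without Biotin+ replicate 2), its mean being 146 CPM (SD 45.2, n = 3) in Biotin+ libraries and 106 CPM (SD 8.44, n = 3) in Biotin- libraries. Nfe2l1, the transcription factor that raises proteasome genes when the protease is short, was at -0.32 ± 0.23 (SE, edgeR adjusted p = 0.468), its mean being 129.5 CPM (SD 31.3, n = 3) in Biotin+ libraries and 161 CPM (SD 29.9, n = 3) in Biotin- libraries. With identity scaling all 26 were negative and 14 were called lower, where 29.3% of all genes were.

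Of 19 genes of class I presentation and interferon gamma signalling, 1 passed, where 8.26% of all genes did, and the median was 0.14. The gene that passed was Ifngr2, which encodes a chain of the receptor for interferon gamma, with a mean of 9.55 CPM (SD 0.37, n = 3) in the Biotin+ libraries and 21.7 CPM (SD 3.98, n = 3) in the Biotin- libraries. Its log2 fold change was -1.19 ± 0.25 (SE, edgeR adjusted p = 0.0180), and the call was lost when Biotin+ replicate 2 was left out (-1.25), as it was for Biotin- replicate 1 (-1.18) and for Biotin- replicate 3 (-1.05), with log2 fold changes of similar size. Tap1, the neighbour of Psmb9, was at 0.53 ± 0.23 (SE, edgeR adjusted p = 0.209; 0.0505 with the replicate block). Irf1 and Nlrc5, transcription regulators that interferon gamma induces, were at -0.40 ± 0.21 and 0.29 ± 0.25 (SE) and did not pass. With the replicate block Ifng and Ifngr1, named after their values were seen, were called higher and Ifngr2 lower. The block called 5.6% of all genes higher and 12% lower.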

How the data were processed

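The values deposited by the authors are raw counts, 1 row per gene symbol, per the labels. The submitters' processing notes name the build GRCm39 and the tools featureCounts 2.0.1, Picard 1.14, Trim Galore 0.6.7 and STAR 2.7.10a. For the annotation, strandedness and multi-mapped reads, the choice is not given in the sources used here. Libraries were poly-A selected and primed with random hexamers, per the labels' protocols. Samples were grouped by their titles, and as separate animals are not stated, p-values measure the spread between these libraries, which may be technical. Every pair within a group differed by more than sampling noise (chi-square divided by its degrees of freedom, 35.6 to 102.7).

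Counts were fitted over the whole table with edgeR 4.0.16 (R 4.3.3; filterByExpr, TMM, robust quasi-likelihood F test, group alone, Benjamini-Hochberg over 13360 genes, threshold 0.05), tested first on simulated data. SE is the log2 fold change over the root of F, and 95% intervals use the fit's degrees of freedom. Same-numbered libraries of the groups deviated together over all genes tested (r = 0.366, 0.263 and 0.393), so a fit with the number as a block is given beside results whose call it changes. Over the members alone r was 0.142, 0.206 and 0.234, beside 0.308 for Biotin+ replicate 3 with Biotin- replicate 1. Alternatives were other scalings and filters, DESeq2 1.42.0, limma 3.58.1 voom with sample weights, and leaving out libraries. Lengths, exon overlaps and windows of 75 bases used GENCODE M21 (GRCm38), in which all 49 members matched by symbol. Intervals and the limit of 3 counts cover counting error or library spread only. Members, lists and motifs were chosen with earlier results of these data known. Named genes are active-site subunits, activators and, per class, those with the smallest p and the extreme log2 fold changes. Of the 27 proteasome-associated genes, 26 were tested. The values of 1 gene that the naming rule covers are not reported here.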

Additional observations from a re-analysis of the deposited data

How the results depend on the processing

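The count of members called higher, 0 in the edgeR fit, was 3 with the replicate block and 1 with DESeq2, and the count called lower, also 0, was 12 with identity scaling. Each was 0 under the remaining alternatives, leaving out each library or same-numbered pair included. Of all genes tested (13385 to 13865), 23 to 200 were called higher and 239 to 1044 lower when libraries or pairs were left out. With so few genes called higher in the whole table, 0 of 47 called higher says little about the members. Other scalings and filters, identity scaling aside, called 84 to 396 of all genes higher and 891 to 1495 lower. Proteasome-associated genes called lower, 0 in the edgeR fit, were 14 with identity scaling, 1 with library size alone and 1 with DESeq2. Over all genes 29.3% were called lower with identity scaling, 10.4% with DESeq2, and 892 of 13360 with library size alone. Class I and interferon gamma genes called higher, 0 in the edgeR fit, were 2 with the block, 1 with no filter, and 0 to 1 when libraries or pairs were left out. Over all genes 5.6% were called higher with the block and 396 of 22334 with no filter. Class I and interferon gamma genes called lower, 1 in the edgeR fit, were 7 with identity scaling, where 29.3% of all genes were, and 0 to 1 when libraries or pairs were left out. For the subunit ratios the range over single libraries left out was 0.159 to 0.479 for Psmb8/Psmb5, 0.105 to 0.404 for Psmb9/Psmb6 and -0.439 to 0.0573 for Psmb10/Psmb7 (0.0050 without Biotin+ replicate 2). The replicate block left the ratios at 0.31, 0.27 and -0.16, and against the summed alpha subunits the immunosubunits were at 0.33, 0.34 and -0.058. Under the block the log2 fold changes of Psmb3, Psmb8 and Psmb9 were 0.65, 0.65 and 0.66, and the block changed no other member's call.

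Of the genes that the naming rule covers and whose values are reported (named genes below), these changed sign. Other genes that the report mentions are not listed. Among them, Psma6, Psmb1, Psmc2, Psmd2, Psmd6, Psmd12, Psmg3, Tap2 and Ifngr1 also turned with identity scaling. With identity scaling, which moved the median of all genes by -0.776 and left 6.44% of them positive, the values of named genes were -0.34 for Psma2, -0.29 for Psma3, -0.32 for Psma4, -0.77 for Psma5, -0.59 for Psmb10, -0.51 for Psmb2, -0.13 for Psmb3, -0.45 for Psmb5, -0.42 for Psmb6, -0.35 for Psmb7, -0.17 for Psmb8, -0.15 for Psmb9, -0.64 for Psmc1, -0.31 for Psmc3, -0.42 for Psmc5, -0.55 for Psmd10, -0.66 for Psmd11, -0.25 for Psmd13, -0.60 for Psmd14, -0.56 for Psmd4, -0.57 for Psmd5, -0.68 for Psmd8, -0.68 for Psmd9, -0.54 for Psme1, -0.36 for Psme2, -0.59 for Psme2b, -0.51 for Psme3, -0.30 for Psmf1, -0.53 for Psmg4, -0.45 for Nlrc5, -0.35 for Pomp and -0.29 for Tap1. With library size alone, where 29 of 47 members were positive in place of 42, the values of named genes that turned were -0.19 for Psma5, -0.057 for Psmc1, -0.080 for Psmd11, -0.036 for Psmd14, -0.091 for Psmd8 and -0.086 for Psmd9. When libraries or same-numbered pairs were left out, the sign turned at least once for 9 named genes (32 of 47 members were positive without Biotin+ replicate 2), with ranges of -0.11 to 0.10 for Psma5, -0.11 to 0.54 for Psmb10, -0.059 to 0.37 for Psmd14, -0.044 to 0.35 for Psmd5, -0.21 to 0.33 for Psmd8, -0.10 to 0.28 for Psmd9, -0.031 to 0.41 for Psme2b, -0.68 to 0.12 for Psmg1 and -0.096 to 0.48 for Psmg4. Single values that turned were -0.017 for Psma5 with no filter, -0.054 for Psma5 with upper quartile scaling and -0.0098 for Psmd8 with limma-voom. For identity scaling the turns follow from the shift of all genes, and for the other alternatives the cause was not tested. The median of all genes moved by -0.20 with library size alone and by -0.079 with upper quartile scaling. None of these genes was called in the edgeR fit. With 3 libraries a group the 95% intervals were wide, and any log2 fold change inside a gene's interval remained compatible with its counts in the edgeR fit.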
